A study of Mus musculus with 30 samples.

Results

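Colon RNA of Smox-/- mice that drank spermidine was compared with colon RNA of Smox-/- mice that drank none, to see what the supplement does in a colon that was given no carcinogen and no colitis treatment. The comparison holds the 3 libraries titled Smox + Spd and the 3 titled Smox, which are 6 of the 30 libraries of the series, and each library was put in its group by its label. All 6 came from male C57BL/6 mice, age-matched at 8 to 12 weeks and house-bred, and neither azoxymethane (AOM) nor dextran sulfate sodium (DSS) was given to them. Smox mice with spermidine had 14 mM spermidine in their drinking water for 56 days, and untreated Smox mice are labelled as controls. Both groups are labelled as carrying the Smox deletion, so the comparison itself holds no colon labelled wild-type (WT). How much of the gene the deletion takes out, and whether it was limited to some cells, is not stated in the labels. Other groups enter only beside these values. They are WT mice with 14 mM spermidine against untreated WT mice, and Smox mice given AOM-DSS with spermidine against Smox mice given AOM-DSS alone, both as non-tumor colon. Each group had 3 mice and each library was taken as 1 mouse.

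Polyamines are small, positively charged molecules that cells need for translation and growth. Ornithine decarboxylase makes putrescine, spermidine synthase turns it into spermidine, and spermine synthase turns that into spermine. Spermine oxidase, the product of Smox, runs the last step backwards and releases hydrogen peroxide, and in the gut its level is known to follow inflammation and infection. Spermidine also donates the chemical group that turns eIF5A into its active, hypusinated form.

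Levels are given as CPM, each gene's count divided by the scaled total of its library. Libraries held 58839099 to 68632794 counts for Smox mice with spermidine, against 53101147 to 81011304 for untreated Smox mice. The colonocyte list of 30 marker genes was present in every library, with a summed level of 39917 to 50369 CPM with spermidine and 38005 to 54326 CPM without. A few libraries stood apart by cells of other kinds. Spermidine replicate 1 held skeletal muscle genes at a summed 2370.5 CPM, where the other 5 libraries had 112 to 471 CPM, and T and NK cell genes at 372 CPM, where the others had 20.1 to 66.6 CPM. Untreated replicate 3 held squamous epithelium genes at 4233 CPM, where the others had 617 to 1523 CPM. On the first 2 principal components of the 6 libraries, with 35.4% and 26.9% of the variance, untreated replicate 3 lay at one end of the first at 51.8 and spermidine replicate 1 at one end of the second at 58.0. Lists whose values turn on 1 of these libraries are given without it as well.

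Spermidine in Smox mice gave no gene past the threshold. In edgeR's quasi-likelihood test the smallest adjusted p over 19558 genes was 0.498, so 0% of genes were called. Before adjustment 980 genes were higher and 845 were lower at a p under 0.05, which is 5.01% and 4.32% of the genes tested. The values of the groups did not overlap in 2266 genes that were higher (11.6%) and 1858 that were lower (9.5%). The median log2 change of all genes was 0.01. DESeq2 on the same counts called 46 genes, 0.223% of the 20666 it tested, with 11 higher and 35 lower. Single genes below are therefore given by their values, with unadjusted p from edgeR as a description, and groups of genes by their counts beside these background shares. Leaving out any 1 of the 6 libraries also gave no edgeR call.

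**Figure D1:**
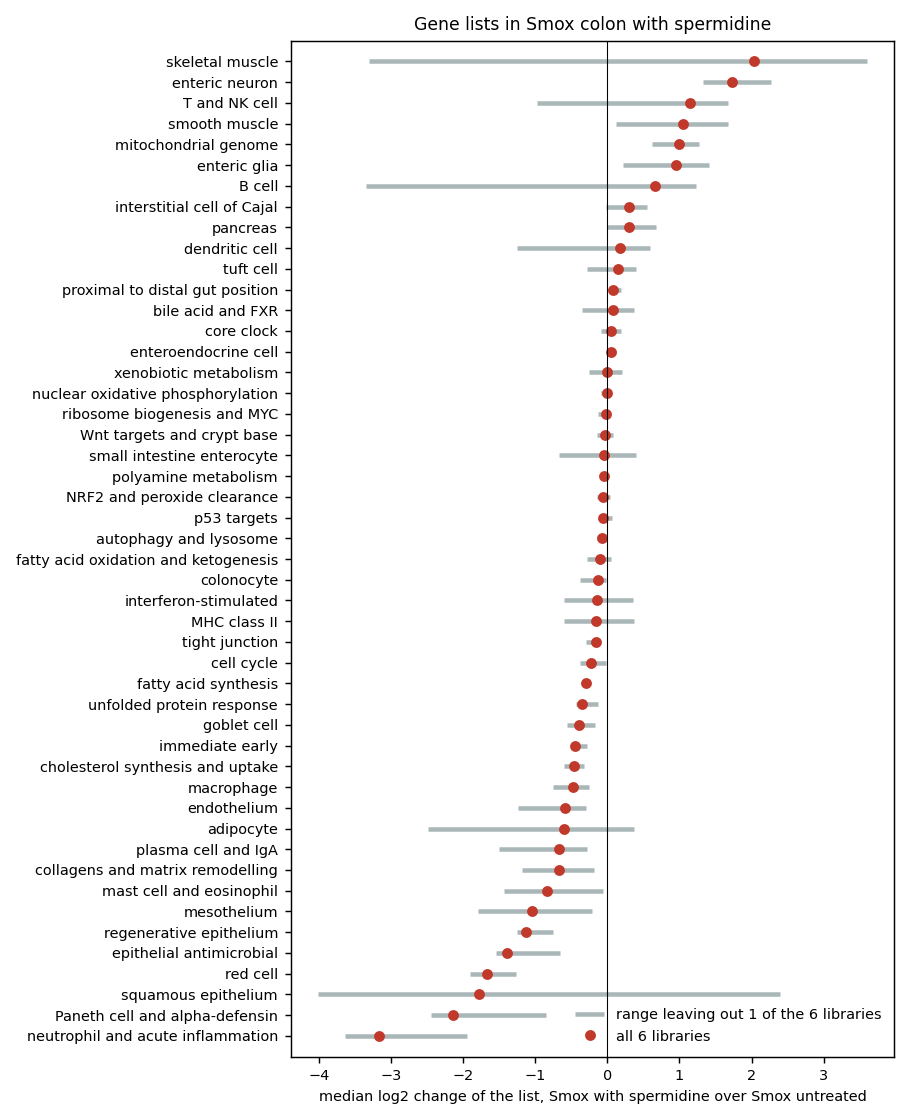
Median log2 change of each list of genes, Smox mice with spermidine over untreated Smox mice (red points, all 6 libraries), and its range when 1 of the 6 libraries is left out (grey bars). Neutrophil, antimicrobial, regenerative epithelium and cholesterol lists stay below 0 throughout, enteric neuron and mitochondrial genome lists stay above 0, and the bars of skeletal muscle, squamous epithelium, T and NK cell and B cell lists cross 0.

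The deleted gene was looked at first. Smox RNA (chromosome 2, 131491496 to 131525922, GRCm38) had 18.6, 26.6 and 22.8 CPM in Smox mice with spermidine, against 28.7, 36.2 and 27.4 CPM in untreated Smox mice. Each spermidine library was below each untreated one, with a log2 change of -0.44 (SE 0.24, edgeR unadjusted p = 0.0798). The same gene had 48.8, 49.4 and 43.7 CPM in WT mice with spermidine and 26.7, 25.1 and 27.6 CPM in untreated WT mice. The level in untreated Smox mice was thus not below that of untreated WT mice, and since a count over the whole gene cannot show a deleted part, Smox below names the label of the mice.

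Genes of polyamine metabolism lay close to their untreated levels on the whole. Of 31 genes tested, Smox among them, 11 were higher and 20 lower with spermidine, the median log2 change was -0.05, and 1 gene had an unadjusted p under 0.05. That gene was Azin1, the antizyme inhibitor that protects ornithine decarboxylase from breakdown, with 170, 157 and 140 CPM with spermidine against 232, 203 and 230 CPM without (log2 change -0.51, SE 0.20, edgeR unadjusted p = 0.0176). In WT mice Azin1 was also lower with spermidine (log2 change -0.46, SE 0.20, edgeR unadjusted p = 0.0319). The widely expressed antizymes, which send ornithine decarboxylase to the proteasome and are made when polyamines are high, stood on the other side. Oaz2 had 58.2, 56.2 and 57.7 CPM with spermidine against 48.5, 41.7 and 42.2 CPM without, and Oaz1 had 346, 307 and 307 CPM against 302, 264 and 275 CPM. The groups did not overlap in either gene, and the unadjusted p of edgeR was 0.0892 for Oaz2 and 0.182 for Oaz1. Of the 31 listed genes, 3 were higher and 4 lower without overlap, against 11.6% and 9.5% of all genes. In WT mice Oaz2 and Oaz1 had log2 changes of -0.20 and -0.01. The third antizyme, Oaz3, was at 0.48 CPM or less in every library, with a log2 change of -0.04 and overlapping groups. Azin2, the other antizyme inhibitor, had 3.82, 3.13 and 5.44 CPM with spermidine against 3.19, 2.67 and 2.02 CPM without, with overlapping groups (log2 change 0.65, SE 0.45). Antizyme is also set by a change of reading frame during translation, which RNA levels do not show.

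Apart from Smox, given above, the enzymes of synthesis and breakdown overlapped between the groups. Odc1 itself had 214, 229 and 181 CPM with spermidine and 174, 244 and 259 CPM without. Srm, spermidine synthase, averaged 15.8 ± 2.28 CPM and 19.4 ± 7.46 CPM (SD, n = 3 each), and Sat1, the acetyltransferase that starts polyamine export, 213 ± 21.8 CPM and 220.5 ± 25.002 CPM. Arg1, arginase 1, ranged from 2.94 to 26.0 CPM with spermidine and from 1.84 to 155 CPM without, so its mean was set by single libraries. Eif5a, the protein that hypusine activates, and the enzymes Dhps and Dohh that make hypusine had log2 changes of -0.10, -0.04 and -0.05.

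Genes of cholesterol synthesis and uptake were lower together in Smox mice with spermidine. All 25 listed genes were tested and all 25 had a lower mean, with a median log2 change of -0.47 where all genes had 0.01. In 21 of them no spermidine library reached the lowest untreated one, and 14 had an unadjusted p under 0.05 in edgeR, none after adjustment. These genes answer to SREBP2, a membrane-bound transcription factor that its escort SCAP carries to the Golgi when sterols are low and that INSIG1 holds back in the endoplasmic reticulum.

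The factor itself and its escort were both called by DESeq2. Srebf2, which encodes SREBP2 (chromosome 15, 82147181 to 82205379), had 251, 299 and 270 CPM in Smox mice with spermidine, against 353, 375 and 353 CPM in untreated Smox mice. The highest spermidine library was below the lowest untreated one, with a log2 change of -0.40 (SE 0.11, edgeR unadjusted p = 0.00164, DESeq2 adjusted p = 0.0319). Scap had 64.8, 80.7 and 75.1 CPM against 91.0, 94.9 and 111 CPM, a log2 change of -0.43 (SE 0.11, DESeq2 adjusted p = 0.0319). The groups did not overlap in this gene either. Insig1, itself a target of the pathway, had 39.8, 55.0 and 81.5 CPM with spermidine and 116, 98.5 and 93.4 CPM without (log2 change -0.80, SE 0.40).

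The enzymes showed the same order. Hmgcs1, which makes HMG-CoA at the start of the pathway, had 197.8, 258.2 and 337.7 CPM with spermidine against 399.7, 387.0 and 391.97 CPM without (log2 change -0.57, SE 0.26, edgeR unadjusted p = 0.0372). Mvd, which makes isopentenyl pyrophosphate, had 34.4, 45.4 and 49.6 CPM against 71.1, 76.3 and 61.7 CPM, a log2 change of -0.69 (SE 0.24). In both genes spermidine replicate 1 was the lowest library and the groups did not overlap. Later steps followed, with Sqle (squalene epoxidase) at a log2 change of -0.62, Lss (lanosterol synthase) at -0.66 and Nsdhl, a sterol dehydrogenase, at -0.47. The smallest differences were those of Ebp at -0.14 and Dhcr7 at -0.08, and the groups overlapped in Dhcr7.

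Spermidine replicate 1, the library that also held skeletal muscle and lymphocyte genes, was the lowest library in every gene named above. Without it all 25 genes were still lower, the median log2 change was -0.33, and 1 gene in place of 14 had an unadjusted p under 0.05. Without it and untreated replicate 3 the median was -0.36, with 25 of 25 lower and 3 at an unadjusted p under 0.05. Leaving out any other single library gave medians from -0.61 to -0.45 and 9 to 14 such genes, with 24 of 25 lower without untreated replicate 1 and 25 of 25 otherwise. Colonocyte markers had a median log2 change of -0.13 with 9 of 30 higher and none at an unadjusted p under 0.05, and their part in the result was not tested.

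**Figure D2:**
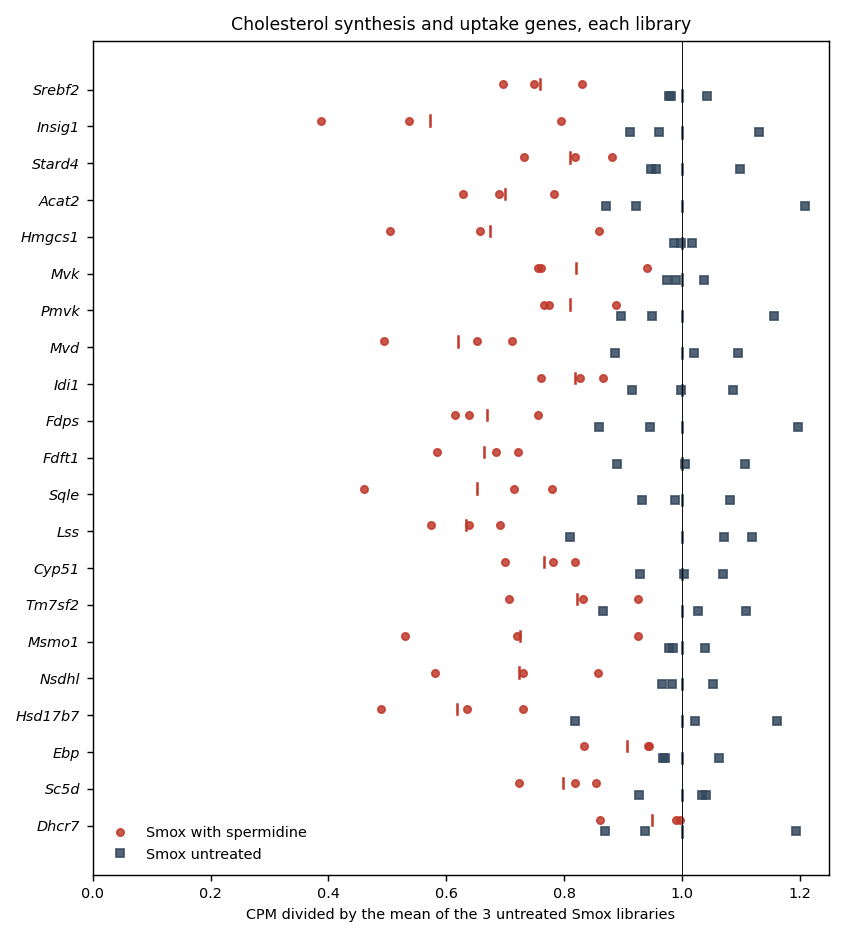
CPM of cholesterol synthesis and uptake genes in each library, divided by the mean of the 3 untreated Smox libraries, so that 1.0 is that mean (circles, Smox with spermidine; squares, untreated Smox; bars, group means). Of the 21 genes drawn, 19 have all circles left of all squares, and the overlaps are in Tm7sf2 and Dhcr7.

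Fatty acid synthesis, the branch served by the related factor SREBP1, was lower in part. Of 18 genes 15 had a lower mean and 3 a higher one, the median log2 change was -0.29, and 3 had an unadjusted p under 0.05, against 1 without spermidine replicate 1 or without spermidine replicate 3. Fasn, fatty acid synthase (chromosome 11), had 133, 189 and 164 CPM in Smox mice with spermidine, against 271, 277 and 283 CPM in untreated Smox mice. The untreated values were close together and all above the spermidine values, and the log2 change was -0.78 (SE 0.20, edgeR unadjusted p = 0.000853, DESeq2 adjusted p = 0.0499). Acaca, which makes the malonyl-CoA that Fasn uses, and Scd1, a desaturase, had log2 changes of -0.42 and -0.79 without overlap. Acly, Acss2 and Me1, which supply acetyl-CoA and NADPH, had changes of -0.03, 0.06 and -0.06. Srebf1 had 107, 153 and 116 CPM with spermidine and 175, 200 and 128 CPM without, with overlapping groups.

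Promoters of these genes were read to show what the members have in common besides their levels, from RefSeq sequences of GRCm38.p6 that run from 250 bases before to 50 bases after each start. Of the 25 genes 17 matched, with 20 windows. The sterol regulatory element was searched as TCACNCCAC and the CCAAT box, bound by NF-Y, a partner of SREBP at such promoters, as CCAAT, both on either strand and with matches allowed to overlap. The CCAAT box was in 16 of the 17 genes (94.1%), against 41.1% of all 27025 genes with a window, and the sterol element in 1 of 17 (5.88%), Hmgcs1, against 1.44%. A match describes these letters and not a bound site, and the pattern used for the sterol element is narrower than the sites SREBP can bind. The windows of Hmgcs1, the first committed enzyme and the member with both patterns, of Srebf2 and Mvd, and of Fasn are printed 5′ to 3′ on the strand of the gene, with every match in capitals (ATTGG is CCAAT on the other strand). In Fasn a pair of matches on opposite strands overlap.
Hmgcs1 (chr13:119690101-119690400, + strand): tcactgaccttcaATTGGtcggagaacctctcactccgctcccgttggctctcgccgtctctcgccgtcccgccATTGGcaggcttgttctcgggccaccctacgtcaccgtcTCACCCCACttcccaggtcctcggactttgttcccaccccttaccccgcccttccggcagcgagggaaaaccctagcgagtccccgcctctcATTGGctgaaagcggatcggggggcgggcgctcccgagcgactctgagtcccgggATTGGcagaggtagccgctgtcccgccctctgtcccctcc
Srebf2 (chr15:82147019-82147318, + strand): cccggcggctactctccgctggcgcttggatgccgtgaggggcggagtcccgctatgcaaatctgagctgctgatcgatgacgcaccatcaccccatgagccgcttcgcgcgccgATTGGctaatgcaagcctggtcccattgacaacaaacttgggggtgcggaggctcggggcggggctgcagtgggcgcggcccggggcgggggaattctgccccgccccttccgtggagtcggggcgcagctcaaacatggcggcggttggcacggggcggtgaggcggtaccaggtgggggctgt
Mvd (chr8:122443373-122443672, − strand): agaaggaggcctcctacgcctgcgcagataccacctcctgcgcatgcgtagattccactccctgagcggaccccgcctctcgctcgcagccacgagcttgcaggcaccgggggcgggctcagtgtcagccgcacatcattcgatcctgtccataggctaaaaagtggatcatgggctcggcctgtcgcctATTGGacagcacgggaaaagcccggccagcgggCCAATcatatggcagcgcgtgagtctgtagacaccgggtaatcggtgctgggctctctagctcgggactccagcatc
Fasn (chr11:120824498-120824797, − strand): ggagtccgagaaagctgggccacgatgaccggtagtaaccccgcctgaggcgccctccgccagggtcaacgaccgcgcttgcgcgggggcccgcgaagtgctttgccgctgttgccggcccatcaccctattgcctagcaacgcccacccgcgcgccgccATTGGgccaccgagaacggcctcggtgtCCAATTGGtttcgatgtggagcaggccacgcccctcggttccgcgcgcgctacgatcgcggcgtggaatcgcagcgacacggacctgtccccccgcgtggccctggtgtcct
In Hmgcs1 the 1 run of capitals that holds no ATTGG is the sterol element.

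Epithelial defence genes were lower in Smox mice with spermidine. Of 22 listed genes 21 had a lower mean and 1 a higher one, the median log2 change was -1.39, 9 had an unadjusted p under 0.05 and in 8 the groups did not overlap. The dual oxidases release hydrogen peroxide at the surface of the colon lining. Duox2, their main member in the colon, had 175, 177 and 135 CPM with spermidine against 379, 407 and 342 CPM without (log2 change -1.21, SE 0.46, edgeR unadjusted p = 0.0144). Duoxa2, the maturation factor that Duox2 needs, had 38.5, 48.9 and 35.2 CPM against 102, 133 and 104 CPM (log2 change -1.47, SE 0.46, edgeR unadjusted p = 0.00443). In both genes the 3 untreated libraries stood together, well above all 3 spermidine libraries.

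Other secreted and inducible products followed. Reg4, a lectin of goblet and enteroendocrine cells, had 105, 148 and 324 CPM with spermidine and 613, 443 and 718 CPM without, a log2 change of -1.62 (SE 0.49). Nos2, the inducible nitric oxide synthase, had 23.1, 25.4 and 6.59 CPM against 75.1, 192 and 61.6 CPM, a log2 change of -2.58 (SE 0.99). Lcn2, lipocalin 2, which binds bacterial siderophores, had 0.35, 0.97 and 1.25 CPM against 2.14, 26.6 and 12.4 CPM, a log2 change of -3.99 (SE 1.33). None of these 3 genes overlapped between the groups, though the untreated values of Nos2 and Lcn2 were spread widely. Reg3b and Reg3g, antibacterial lectins, overlapped, since untreated replicate 1 was as low as the spermidine libraries with Reg3b at 18.9 CPM. The one gene with a higher mean change was Zg16, a mucus lectin, at a log2 change of 0.08. Without untreated replicate 2 the median of the list was -0.67 with 19 of 22 lower, and over the other libraries left out it ran from -1.54 to -1.23.

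Goblet cell markers held 1 gene of the same kind. Spink4, a small peptide of goblet cell granules, had 151, 186 and 151 CPM with spermidine against 290.3, 391.8 and 415 CPM without, a log2 change of -1.17 (SE 0.38, edgeR unadjusted p = 0.00551). The groups did not overlap. The main mucin Muc2 had 4842, 4152 and 626 CPM against 2382, 4205 and 3663 CPM, and spermidine replicate 3 was the low library. Over the 20 goblet cell genes the median log2 change was -0.39, with 18 lower, 2 higher and 1 at an unadjusted p under 0.05. Without spermidine replicate 3 it was -0.18, with 13 lower and 7 higher.

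Neutrophil and acute inflammation genes showed the largest median of the lists, and it rested unevenly on the untreated mice. All 32 genes tested of 34 listed had a lower mean with spermidine, 22 had an unadjusted p under 0.05, in 15 the groups did not overlap, and the median log2 change was -3.18. The summed level of the list was 136, 205 and 110.0 CPM in Smox mice with spermidine, against 275, 815 and 799.5 CPM in untreated Smox mice. Untreated replicate 1 was thus close to the spermidine libraries, and untreated replicates 2 and 3 were far above them. Neither AOM nor DSS was given to these mice, and untreated WT mice had 102, 162 and 25.1 CPM. In whole tissue, fewer cells of a type and less RNA in each of them cannot be told apart, here or in any list of cell markers below.

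Receptors of neutrophils and the chemokines that draw them were low in every spermidine library. Csf3r, the receptor for the neutrophil growth factor G-CSF, had 0.65, 0.52 and 0.23 CPM with spermidine against 0.79, 10.6 and 2.65 CPM without (log2 change -3.32, SE 0.94, DESeq2 adjusted p = 0.0449). Cxcl2, a neutrophil attractant, had 0.35, 0.43 and 0.25 CPM against 0.52, 11.3 and 4.25 CPM, without overlap. The calprotectin genes S100a8 and S100a9 overlapped, with S100a9 at 0.10, 4.64 and 0.05 CPM with spermidine and 1.07, 32.8 and 37.0 CPM without. Il1b, interleukin 1 beta, had 1.13, 3.11 and 0.63 CPM against 3.05, 49.7 and 7.002 CPM, with a log2 change of -3.61 (SE 1.11) and a slight overlap. Lrg1, a glycoprotein of neutrophils and the acute phase, had 3.00, 3.14 and 1.72 CPM against 21.6, 257 and 22.7 CPM and was the clearest of this kind, with a log2 change of -5.26 (SE 1.27, edgeR unadjusted p = 0.000405, DESeq2 adjusted p = 0.000177). Every untreated library was well above every spermidine library for Lrg1, and untreated replicate 2 far above the rest.

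Tissue-remodelling proteases were high in 1 mouse. Mmp10, stromelysin 2, had 0.35, 0.56 and 0.20 CPM with spermidine and 0.89, 67.3 and 3.46 CPM without, and Mmp3, stromelysin 1, had 0.68, 0.20 and 0.12 CPM against 1.13, 32.3 and 0.89 CPM. Both were called by DESeq2 (adjusted p = 0.0207 and 0.0224). The groups did not overlap, but untreated replicate 2 held most of the signal. Without that mouse none of the 37 collagen and matrix genes had an unadjusted p under 0.05, against 6 with it, and the median moved to -0.19, against -0.68 with it. The neutrophil list without it had a median of -1.95 (on the log2 scale) with 31 of 32 lower and 10 at an unadjusted p under 0.05, and without spermidine replicate 3 it had 14 such genes.

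**Figure D3:**
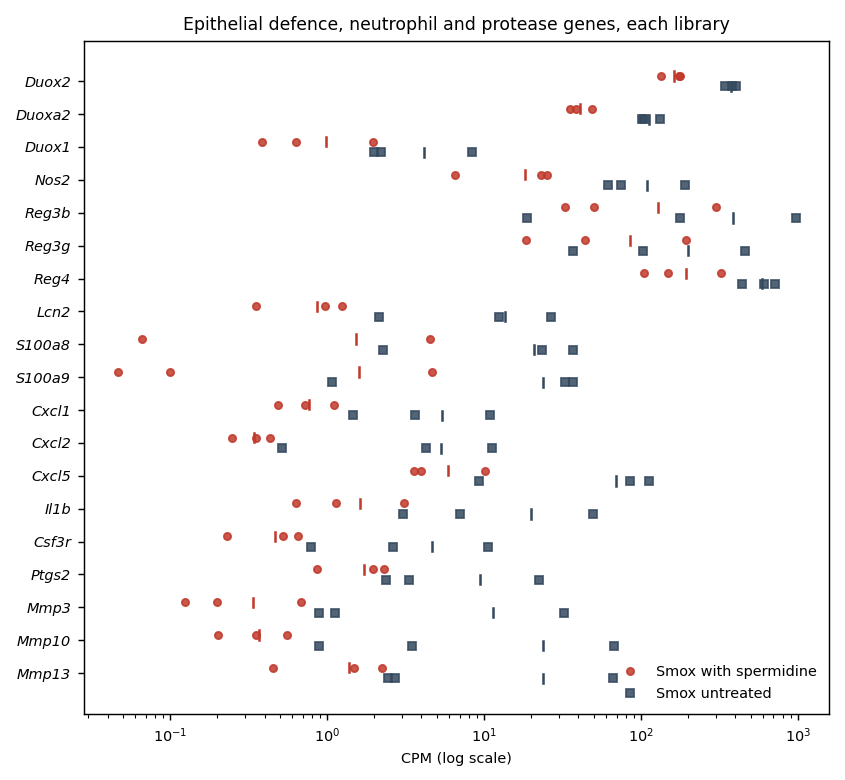
CPM on a log scale of defence, neutrophil and protease genes in each library (circles, Smox with spermidine; squares, untreated Smox; bars, group means). Duox2, Duoxa2 and Reg4 separate the groups with tight untreated values, while Mmp3, Mmp10 and Mmp13 have a single untreated library near 30 to 70 CPM; S100a8 is at 0 in spermidine replicate 3 and has no circle there.

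Genes of the regenerating epithelium were lower as well. All 21 had a lower mean, 7 had an unadjusted p under 0.05 and in 8 the groups did not overlap, with a median log2 change of -1.14. Hbegf, a ligand of the EGF receptor, had 18.1, 28.7 and 24.5 CPM with spermidine against 32.4, 63.0 and 51.3 CPM without (log2 change -1.04, SE 0.34, edgeR unadjusted p = 0.00595). Tnfrsf11b, the decoy receptor osteoprotegerin, had 3.45, 3.84 and 1.72 CPM against 7.89, 31.6 and 20.8 CPM, a log2 change of -2.74 (SE 0.92). Plaur, the urokinase receptor, had a log2 change of -1.34 (SE 0.60) without overlap. Without untreated replicate 2 the median of the list was -0.76 with 20 of 21 lower and 2 at an unadjusted p under 0.05, and without spermidine replicate 3 there were also 2. Ly6a, a marker of fetal-like repair, ranged from 135 to 344 CPM with spermidine and from 236 to 756 CPM without, so its groups overlapped.

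Immediate early genes, which answer to growth factors and stress within minutes, had 26 of 30 members lower and a median log2 change of -0.44, with 7 at an unadjusted p under 0.05. Without untreated replicate 2 the median was -0.29, with 21 lower and 3 at such a p, and without spermidine replicate 1 and untreated replicate 3 together it was -0.58 with 28 lower and 2. Maff, a small Maf factor, had 13.3, 17.1 and 22.1 CPM with spermidine against 27.4, 30.8 and 36.6 CPM without, a log2 change of -0.85 (SE 0.25). Trib1, a pseudokinase, had 66.4, 93.2 and 70.5 CPM against 109, 135 and 147 CPM. Neither gene overlapped between the groups. Fos, with 43.0, 79.4 and 108 CPM against 154, 172 and 102 CPM, did overlap.

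Genes of enteric neurons ran the other way. All 25 had a higher mean in Smox mice with spermidine, the median log2 change was 1.72, 14 had an unadjusted p under 0.05 and in 18 the groups did not overlap. Elavl3, an RNA-binding protein of neurons, had 4.97, 1.73 and 2.78 CPM with spermidine against 1.33, 0.27 and 0.71 CPM without (log2 change 2.04, SE 0.63, edgeR unadjusted p = 0.00359). Snap25, a part of the machinery that releases transmitter, had 23.1, 9.36 and 18.4 CPM against 7.57, 3.25 and 3.85 CPM (log2 change 1.80, SE 0.60). In both, the lowest spermidine library, replicate 2, lay just above the highest untreated one, replicate 1. Transmitter genes were higher by unlike amounts, with Nos1 of inhibitory neurons at a log2 change of 2.03 and Tac1, tachykinin, at 0.31.

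The lists of glia, smooth muscle and mitochondria moved beside the neuron genes, but not every list of the gut wall did. Endothelium had 18 of 22 genes lower (median log2 change -0.59), mesothelium 8 of 8 (-1.05) and collagens and matrix 31 of 37 (-0.68). Interstitial cells of Cajal had 4 of 5 genes higher (0.30). Enteric glia had 11 of 14 genes higher and a median of 0.95. All 20 smooth muscle genes had a higher mean, with a median of 1.05, none at an unadjusted p under 0.05 and overlapping groups in all of them. Their summed level was 2325, 6037 and 14463 CPM against 6153, 2836 and 2507 CPM, so spermidine replicate 1, which had the highest neuron genes, had the lowest smooth muscle level of the 6 libraries. All 15 genes of the mitochondrial genome had a higher mean, with a median of 0.99 and 12 at an unadjusted p under 0.05, and they took 6.74, 4.32 and 9.90% of the counts with spermidine against 3.30, 3.12 and 4.12% without. The 30 nuclear genes of oxidative phosphorylation had a median of -0.0048, with 14 higher and 16 lower. The part of muscle wall content or RNA quality in the neuron result was not tested.

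Leaving out libraries moved the neuron counts more than their direction. Without spermidine replicate 3 the neuron list had a median of 1.71 (on the log2 scale) with 11 at an unadjusted p under 0.05, while the smooth muscle median was 0.13 with 17 of 20 higher and the glia median 0.21 with 9 of 14 higher. Without spermidine replicate 1 the list had a median of 1.32 with 25 of 25 higher and 3 at an unadjusted p under 0.05, and without untreated replicate 2 or 3 there were 4 and 6. Without both spermidine replicate 1 and untreated replicate 3 the median was 1.14, with 24 of 25 higher and none at an unadjusted p under 0.05. The mitochondrial genome kept 15 of 15 higher in each of these, with 10 at an unadjusted p under 0.05 without the pair and 4 without spermidine replicate 3.

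**Figure D4:**
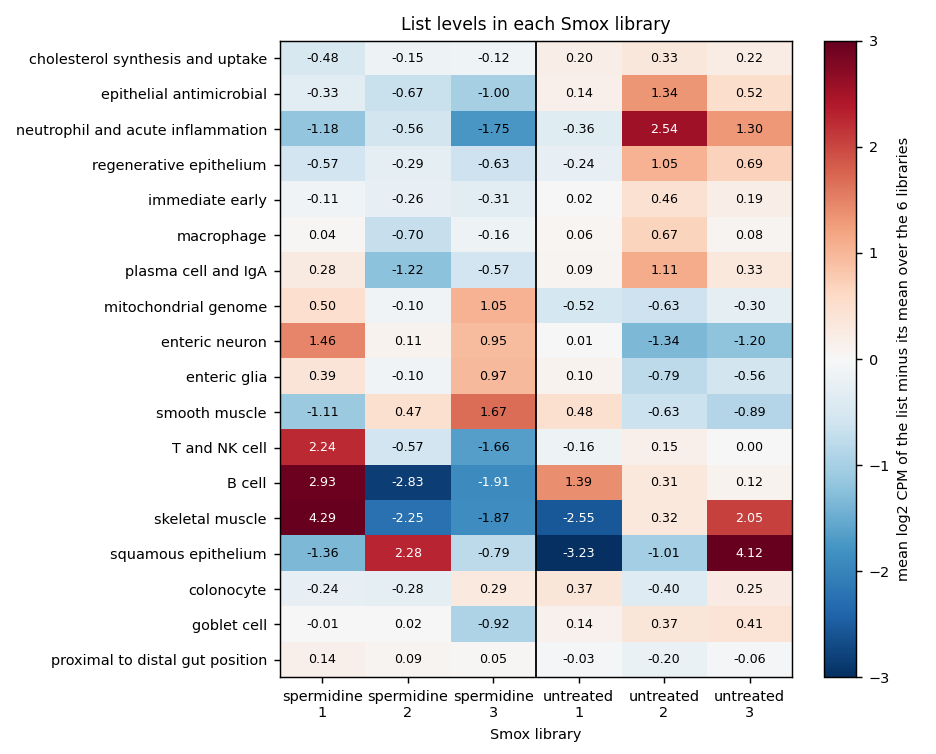
Level of each list in each of the 6 libraries, as the mean log2 CPM of its genes minus the mean over the 6 (columns, spermidine replicates left of the line and untreated replicates right of it). Cholesterol and mitochondrial lists split by group, and neutrophil genes are highest in untreated replicates 2 and 3. Skeletal muscle and B cell genes are highest in spermidine replicate 1, and squamous genes in untreated replicate 3, then spermidine replicate 2.

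Some lists followed 1 or 2 libraries. T and NK cell genes had a median log2 change of 1.15 with 22 of 27 higher, and without spermidine replicate 1 a median of -0.97 with 27 of 27 lower. Lck, a kinase of the T cell receptor, had 51.9 CPM in that library and 2.04 to 5.53 CPM in the other 5. B cell genes turned in the same way, with a median of 0.66 over all 6 libraries and -3.36 without it, and skeletal muscle genes had 2.04 and -3.31. Squamous epithelium genes had a median of -1.79, and 2.40 without untreated replicate 3, when spermidine replicate 2 was the highest library left. Macrophage genes had 15 of 20 lower, a median of -0.48 and 5 at an unadjusted p under 0.05. Without untreated replicate 2 the median was -0.25 with none at such a p, and without spermidine replicate 1 and untreated replicate 3 together it was -0.95. The complement genes C1qa and C1qb and the receptor Csf1r did not overlap between the groups, with log2 changes of -1.03, -1.12 and -1.31.

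Other programmes had small medians or turned with single libraries. Cell cycle genes had a lower mean in 28 of 28 with a median of -0.23 on the log2 scale, none at an unadjusted p under 0.05 and none without overlap, and without untreated replicate 2 the median was -0.01 with 16 lower. Mki67, a proliferation marker, had 162, 199 and 133 CPM with spermidine and 173, 253 and 148 CPM without. Wnt targets, autophagy and lysosome genes and NRF2 and peroxide clearance genes had medians from -0.07 to -0.03. Interferon-stimulated genes had no fixed direction, with a median of -0.15 and 19 of 30 lower over all 6 libraries, 0.35 and 23 higher without untreated replicate 2, and 0.26 and 22 higher without spermidine replicate 3. Without spermidine replicate 1 their median was -0.60 with 29 lower, and without that library and untreated replicate 3 it was -0.88 with 30 lower. Txnrd1, thioredoxin reductase of the NRF2 group, differed more, with 286, 310 and 250 CPM against 335, 545 and 337 CPM and no overlap (log2 change -0.53, SE 0.20). Genes of the unfolded protein response were lower in 21 of 24, with Hspa5, the chaperone BiP, at 415, 452 and 344 CPM against 430, 826 and 516 CPM. Their median was -0.35 with 5 at an unadjusted p under 0.05, and without untreated replicate 2 it was -0.13 with none, where Hspa5 had a log2 change of -0.23. No gene of the list had such a p without spermidine replicate 3 either, and 1 had it without spermidine replicate 1.

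Outside the lists, the gene with the smallest p was Ripk4, a kinase that drives epithelial differentiation (chromosome 16, 97741933 to 97763787). It had 25.6, 32.0 and 27.1 CPM in Smox mice with spermidine against 50.7, 43.3 and 52.8 CPM in untreated Smox mice. The groups were far apart relative to their spread, with a log2 change of -0.79 (SE 0.16, edgeR unadjusted p = 4.25e-05, DESeq2 adjusted p = 0.00237). Leaving out 1 library at a time gave log2 changes from -0.88 to -0.72 and unadjusted p of at most 0.00087. Cttnbp2nl, Dock1, a regulator of the GTPase Rac, and Frmd4b, a scaffold of epithelial junctions, had log2 changes of -0.78, -0.61 and -0.63 without overlap and were called by DESeq2. Eif2b2, a subunit of the translation initiation factor eIF2B, had 25.2, 32.1 and 29.5 CPM against 39.0, 48.1 and 40.3 CPM. Tnfrsf1b, a receptor of tumor necrosis factor, had 35.9, 42.1 and 31.7 CPM against 51.1, 139 and 82.0 CPM.

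On the higher side the smallest p belonged to genes of nerve cells. Spock3, a secreted proteoglycan made in the nervous system, had 4.17, 1.33 and 2.97 CPM with spermidine against 0.79, 0.41 and 0.30 CPM without (log2 change 2.503, SE 0.63, edgeR unadjusted p = 0.000588, DESeq2 adjusted p = 0.0224). Rbfox3, the neuronal splicing factor NeuN, and Snhg11, a host gene of small RNAs, had log2 changes of 2.41 and 2.58 and were called by DESeq2. Cdh2, Map2 and Celf4, all with roles in neurons, had changes of 2.25, 1.57 and 1.88. Zranb2, a splicing protein, had a small but even difference, with 62.4, 57.6 and 61.4 CPM against 43.8, 47.0 and 47.3 CPM.

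Of the 46 genes called by DESeq2, 21 had no count in 1 of the groups, where neither tool gives a fold that can be read. They include Gm20431, at 0 in all 3 spermidine libraries against 13.1, 10.7 and 17.3 CPM without. Among them is also the pseudogene Rps13-ps2, with 8.26, 3.14 and 6.70 CPM with spermidine against 0 in all 3 untreated libraries. Alpha-defensins, the antimicrobial peptides of Paneth cells, are others. Defa17, Defa20, Defa24 and Defa30 were listed at 0 in all 3 spermidine libraries and had at most 0.28 CPM in untreated ones, and edgeR gave them unadjusted p from 0.156 to 0.342. Near-identical copies of these genes can share reads, so a count of 1 copy is uncertain. Of the 45 called genes that edgeR also tested, 30 had an unadjusted p under 0.05 there and none had the opposite sign.

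The response of WT mice was then set beside that of Smox mice. The design asks whether the supplement acts alike in both, and the pairs of groups share no library. In WT mice 1 gene was called for spermidine, 0.00511% of those tested. The difference between the responses passed the test in 427 genes that were more positive in Smox mice (2.18%) and 142 that were more negative (0.726%). The Smox gene itself was among the latter (log2 difference -1.28, SE 0.34, edgeR adjusted p = 0.0449), and was not called on leaving out untreated WT replicate 3. Among the more negative ones was Srebf2, with 312, 339 and 291 CPM in WT mice with spermidine and 289, 284 and 210 CPM in untreated WT mice, where the change in Smox mice was a lower level (log2 difference -0.67, SE 0.16, edgeR adjusted p = 0.0319). Ripk4 was another (log2 difference -1.05, SE 0.22, edgeR adjusted p = 0.0288). It had 46.9, 71.6 and 50.8 CPM in WT mice with spermidine and 51.0, 52.0 and 39.0 CPM in untreated WT mice. Neither gene was called on leaving out untreated WT replicate 3, the lowest untreated WT library in both.

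Group by group, cholesterol genes in WT mice had 13 lower, 12 higher and a median of -0.0085, against 25 lower and -0.47 in Smox mice, and Srebf2 was their only gene with a called difference. Epithelial defence genes had a median of 0.64 in WT mice with 18 of 22 higher, and neutrophil genes 0.08 with 16 of 32 higher, and of these Duox1, another dual oxidase, had a called difference. Enteric neuron genes were lower in 25 of 25 in WT mice, with a median of -2.20, and 10 had a called difference. Untreated WT replicate 3 carried much of that level, since its summed neuron genes were at 1122 CPM where the other untreated WT libraries had 313 and 369 CPM, its mitochondrial share was 21.7%, and its skeletal muscle genes summed to 13493 CPM. Without it none of the 10 neuron genes, nor Srebf2 or Duox1, kept a called difference. The WT median for neuron genes without it was -1.26, still with 25 of 25 lower. Other lists of the gut wall and mitochondria were lower beside them in WT mice, smooth muscle in 20 of 20 with a median of -1.09, glia in 12 of 14 with -1.79 and the mitochondrial genome in 15 of 15 with -0.98. Without untreated WT replicate 3 those medians were -1.02, -0.84 and -0.05. Their part in the neuron result was not tested.

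The count of differing genes itself depended on single libraries. It was 9 without untreated WT replicate 3, of which 7 were among the 569, and among these were Tmx4, a thioredoxin-related protein of the endoplasmic reticulum, Mark4, a microtubule kinase, Micall2, a protein of epithelial junctions, and the RNA-binding protein Zc3h3. Among Smox mice it was 0 on leaving out spermidine replicate 3 or untreated replicate 3, and 1 on leaving out spermidine replicate 1 or untreated replicate 2. Among WT mice it was 0 on leaving out the first or the second replicate with spermidine. It was also 0 without Smox spermidine replicate 1, untreated Smox replicate 3 and untreated WT replicate 3 together. These were the highest in squamous or skeletal muscle genes among the libraries compared. Smox spermidine replicate 2, next in squamous genes, stayed in.

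**Figure D5:**
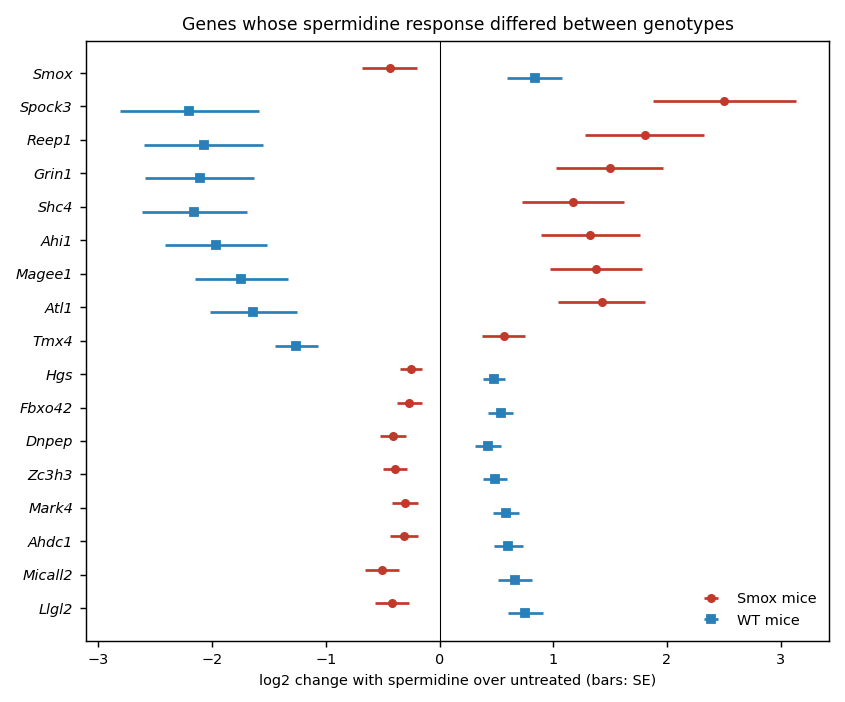
Log2 change with spermidine over untreated in Smox mice (circles) and in WT mice (squares) for Smox and for the genes whose difference between the genotypes had the smallest p, with bars of 1 SE. Circles and squares lie on opposite sides of 0 in every gene shown, which includes Spock3 and Reep1 of nerve cells on the positive side for Smox mice and Micall2 and Llgl2 of epithelial junctions and polarity on the negative side.

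The same supplement in Smox mice with AOM-DSS gave a further view. No gene differed between the responses without and with AOM-DSS (0% called, smallest edgeR adjusted p = 0.157, with 2759 genes at an unadjusted p under 0.05 and 335 called by DESeq2), and the pairs of groups share no library. In the AOM-DSS mice cholesterol genes had 23 of 25 lower with spermidine and a median of -0.46, close to the -0.47 without AOM-DSS, while all genes had a median of 0.0023. Neutrophil genes had 29 of 32 lower with a median of -1.04, and defence genes 14 of 22 lower with a median of -0.37. Enteric neuron genes had 23 of 25 lower and a median of -1.27, opposite in sign to the 1.72 without AOM-DSS. Smooth muscle genes were lower beside them in 19 of 20 with a median of -0.53, glia in 11 of 14 with -1.11 and mitochondrial genes in 15 of 15 with -0.42, and their part in the neuron values was not tested. AOM-DSS spermidine replicate 1, which stood apart from its group, moved some of these, and without it the medians were -0.45 for cholesterol, -3.10 for neutrophil, -0.95 for defence (17 of 22 lower) and -0.90 for neuron genes, and -0.17, -0.79 and -0.15 for smooth muscle, glia and mitochondrial genes.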

How the data were processed

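RNA of colon was extracted with RNeasy Mini kits and made into libraries with the NEBNext Ultra II Directional kit, per the labels' protocols, and sequenced on a NovaSeq6000. The authors deposited a table of expected counts (estimated counts per gene, whole numbers for 100% of values) with 31023 genes and 30 libraries. The submitters' processing notes name fastp, Salmon, DESeq2 and GRCm38, with no versions. GENCODE vM21 gave names to 10546 of the 10593 genes that lacked a symbol.

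Counts of all 30 libraries were fitted together with edgeR 4.0.16 (R 4.3.3, limma 3.58.1) by the robust quasi-likelihood test, TMM scaling and 1 mean per group, leaving 20 residual degrees of freedom. Genes entered by filterByExpr (minimum count 10, minimum total 15), which kept 19558 and removed 11465. Adjustment followed Benjamini-Hochberg across every gene tested, and the threshold was 0.05. Lists are described by counts and medians. The fit was tested on counts simulated from group means and the spread it had estimated. Such counts hold no library that stands apart, so how the fit behaves with such libraries was not tested there. Depth was 33060607 to 81011304 counts per library, and the spread between mice limits precision. Replicates are separate mice, 3 per group, per the series' design text, and litters or extraction days are not given in the sources used here.

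The comparison, gene lists, tests and marker lists were chosen with earlier results of these data known. Genes named were Smox, the polyamine list, the 12 genes per direction with the smallest p among well-measured genes whose groups did not overlap, up to 5 per list by p, and genes called by DESeq2 or by the difference between genotypes. A few members are not reported here by name. Other list members are named to complete a role and were chosen after their values were seen. Other settings tried were RLE scaling, DESeq2 1.42.0, a fit with no filter, at least 1 CPM in 3 libraries, fits of fewer groups, and leaving out libraries.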

Additional observations from a re-analysis of the deposited data

Results flagged for a closer look

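These 16 genes are given because the response to spermidine differed between Smox mice and WT mice, by edgeR's test of the difference itself. The 8 on the positive side were higher with spermidine in Smox mice and lower in WT mice. Spock3 differed by 4.70 on the log2 scale (2.503 in Smox mice, -2.20 in WT mice), Reep1 by 3.87, Grin1 by 3.60, Shc4 by 3.33, Ahi1 by 3.29, Magee1 by 3.12 and Atl1 by 3.06, each with an adjusted p of 0.0254. Tmx4 had the smallest adjusted p, 0.0095, with a difference of 1.82 (0.56 in Smox mice, -1.26 in WT mice). Spock3, Reep1, Grin1 and Atl1 are known from nerve cells, and untreated WT replicate 3, high in such genes, takes part in each value. Without it the difference of Spock3 was 3.94 (edgeR adjusted p = 0.0558).

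The 8 on the negative side were lower with spermidine in Smox mice and higher in WT mice, each with an edgeR adjusted p of 0.0254. The log2 difference was -0.73 for Hgs, -0.80 for Fbxo42, -0.83 for Dnpep, -0.88 for Zc3h3, -0.89 for Mark4, -0.92 for Ahdc1, -1.17 for Micall2 and -1.18 for Llgl2. Without untreated WT replicate 3, Micall2 (-1.39), Mark4 (-1.001), Zc3h3 (-0.84) and Tmx4 (1.77) still passed the test. The other 12 genes kept the sign of the difference without that library and lost the call, with edgeR adjusted p from 0.0555 to 0.0562. No gene at all passed on leaving out Smox spermidine replicate 3, untreated Smox replicate 3, or WT spermidine replicate 1 or 2. Micall2, Mark4, Zc3h3 and Tmx4 therefore lost the call there as well. Only 1 gene passed without Smox spermidine replicate 1, and 1 without untreated Smox replicate 2.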

How the results depend on the processing

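The count of genes called for spermidine in Smox mice was 0 under every edgeR setting run and 46 with DESeq2. In WT mice it was 1, and 910 with DESeq2, 0 with only the groups compared or only the 12 libraries without AOM-DSS, 52 without the 2 atypical libraries (untreated WT replicate 3 and AOM-DSS spermidine replicate 1), and 0 to 7 with 1 library left out. For the difference between genotypes it was 569, and 1783 with DESeq2, 261 with no filter and 10 without the 2 atypical libraries. It was 0 without the 3 libraries highest in squamous or skeletal muscle genes, chosen after seeing the data. With 1 library left out it was 0 to 859. For the difference between mice without and with AOM-DSS it was 0, and 335 with DESeq2, 1 with only the groups compared, 1 without the 2 atypical libraries, and 0 to 9 with 1 library left out. The cause of these moves was not tested. Of 2645 recomputed values for 190 named genes, 85 in 40 genes had the opposite sign, and the 24 called were called by DESeq2 alone. The groups are separate mice, so no paired analysis was run. The labels give no replicate numbers, and those used here follow the order of the library titles.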

Other observations

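Core clock genes were split in Smox mice with spermidine, with 11 of 19 higher, 8 lower and a median log2 change of 0.04. Dbp, a clock output factor, had 33.8, 18.7 and 27.4 CPM with spermidine against 10.5, 10.6 and 14.0 CPM without (log2 change 1.19, SE 0.45, edgeR unadjusted p = 0.0157), and the groups did not overlap. Arntl, the clock activator BMAL1, had 20.3, 33.01 and 29.2 CPM against 49.8, 31.6 and 33.2 CPM, with overlapping groups. The labels give no time of day for tissue collection.

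Among p53 targets, Sesn2, a stress-induced regulator of growth signalling, had 15.8, 16.9 and 13.0 CPM with spermidine against 39.1, 19.4 and 31.2 CPM without (log2 change -0.97, SE 0.32, edgeR unadjusted p = 0.00585). The tight junction list had 15 of 17 genes lower, a median log2 change of -0.16 and 1 gene at an unadjusted p under 0.05 in edgeR. Without overlap 7 of its genes were lower and 1 was higher, against 9.5% and 11.6% of all genes. Hemoglobin genes were low in all 6 libraries, with Hba-a2 at 1.42, 2.51 and 5.12 CPM with spermidine and 7.49, 9.40 and 13.4 CPM without.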
